A study of Mus musculus with 12 samples.

Results

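A set of 10 genes that respond to glucocorticoids or set how cells perceive them, including a pair of metallothionein genes, was followed in RNA-seq libraries from mouse veins. They were chosen by symbol (Fkbp5, Tsc22d3, Zbtb16, Sgk1, Mt1, Mt2, Nr3c1, Hsd11b1, Pdk4 and Per1), and all 10 were found among the 43346 genes of the deposited count table. The sham group (n = 6) was the jugular vein of mice after sham surgery, and the AVF-CKD group (n = 6) was the venous limb of the AVF after AVF-CKD surgery, called fistula veins here. Both were harvested 7 days after the operation. The letters are read here as arteriovenous fistula and chronic kidney disease, which the labels do not spell out. The labels give no strain, genotype, sex, age, hour of harvest or drug. They also leave unsaid whether libraries stem from different mice, and the p-values therefore describe the spread among these samples, which may be technical. Surgery, vessel and kidney disease model differed together between the groups and cannot be told apart.

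Glucocorticoids such as corticosterone cross the cell membrane and bind the glucocorticoid receptor, which a chaperone complex holds in the cytoplasm until the hormone arrives. The receptor then enters the nucleus and switches on target genes, several of which damp the signal in turn. Adrenal release of the hormone follows the time of day and rises with stress, and it reaches the vessel wall through the blood. Metallothioneins are small cysteine-rich proteins that bind zinc and copper, and their genes are induced both by metal, through the factor MTF1, and by glucocorticoids.

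RefSeq promoter windows (GRCm38.p6; 300 bases, from 250 before to 50 after a transcript start) were found for 8 of the 10 genes, 16 windows in all; Nr3c1 and Zbtb16 had none. The windows of 4 genes are shown because the levels of Mt1 and Mt2 moved together and because Sgk1 and Per1 are known receptor and clock targets. For each gene the window shown is the first, by position, that holds the elements marked. Capitals mark the core of the metal response element (TGCGCNC or TGCACNC) in Mt1 and Mt2, the glucocorticoid response element (GNACA, 3 bases of any kind, then TGTNC) in Mt1 and Sgk1, and the E-box (CACGTG) in Per1. All were searched on both strands, and none of the marked stretches overlapped another. The Sgk1 window also held an E-box, left in lower case.
Mt1, chr8:94178839-94179138, plus strand: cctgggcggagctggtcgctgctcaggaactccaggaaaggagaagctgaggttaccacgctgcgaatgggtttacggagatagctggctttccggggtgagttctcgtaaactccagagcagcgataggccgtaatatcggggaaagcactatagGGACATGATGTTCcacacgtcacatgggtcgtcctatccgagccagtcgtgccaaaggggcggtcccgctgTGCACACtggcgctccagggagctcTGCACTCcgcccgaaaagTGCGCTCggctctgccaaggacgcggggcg
Mt2, chr8:94172368-94172667, plus strand: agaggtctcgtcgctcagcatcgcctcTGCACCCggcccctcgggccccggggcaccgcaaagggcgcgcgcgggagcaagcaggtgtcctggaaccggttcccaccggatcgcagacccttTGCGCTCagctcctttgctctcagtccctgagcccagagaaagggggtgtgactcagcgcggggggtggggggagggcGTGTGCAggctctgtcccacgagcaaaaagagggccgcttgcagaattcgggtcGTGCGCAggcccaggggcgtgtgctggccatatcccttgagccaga
Sgk1, chr10:21993640-21993939, plus strand: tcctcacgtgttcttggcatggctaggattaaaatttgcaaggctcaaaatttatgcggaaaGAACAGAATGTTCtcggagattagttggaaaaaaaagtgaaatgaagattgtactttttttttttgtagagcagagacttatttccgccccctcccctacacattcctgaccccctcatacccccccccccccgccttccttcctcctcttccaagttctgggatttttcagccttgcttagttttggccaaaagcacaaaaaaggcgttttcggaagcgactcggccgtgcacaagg
Per1, chr11:69098699-69098998, plus strand: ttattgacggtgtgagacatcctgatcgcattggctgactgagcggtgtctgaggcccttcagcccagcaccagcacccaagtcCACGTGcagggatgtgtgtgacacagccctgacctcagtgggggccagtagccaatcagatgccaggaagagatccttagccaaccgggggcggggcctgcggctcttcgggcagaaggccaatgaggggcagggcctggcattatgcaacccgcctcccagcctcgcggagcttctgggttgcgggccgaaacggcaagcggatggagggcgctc
The Mt1 window held 3 metal response cores and the Mt2 window 4, where 1.97% of all 32851 windows held at least 3 and 0.517% at least 4. The glucocorticoid response element was found in the Mt1 window and in 1 of 6 Sgk1 windows, and in 0.475% of all windows. No window of Fkbp5, Tsc22d3, Per1, Pdk4, Hsd11b1 or Mt2 held it. The Per1 window shown held 1 E-box, and the other Per1 window (chr11:69099902-69100201) held 0. The Fkbp5 window and the Sgk1 window shown also held 1 each, where 7.15% of all windows held at least 1. These shares are per window, and Per1 and Sgk1 each had more than 1 window. These matches describe the letters of the windows and are not measured binding.

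Library totals ranged from 38.65 to 60.14 M counts (M, mega), and each member held 79 to 22738 counts in each library. Vessel wall markers were present in every library: 7 endothelial markers summed to 1140 to 1550 CPM (counts scaled to the library total) in sham veins and 960 to 1500 CPM in fistula veins, and 7 smooth muscle markers to 1810 to 2490 and 1190 to 2300 CPM. Other tissues varied more. The 10 skeletal muscle markers summed to 511 to 14000 CPM in sham veins and 935 to 13300 CPM in fistula veins, and 10 fat markers to 1420 to 5390 and 1100 to 2180 CPM, with sham 6 the highest for fat. The clock output gene Dbp split the libraries, with 4 of them (AVF-CKD 6 and sham 4, 5 and 6) between 6.15 and 21.4 CPM and the remaining 8 between 77.7 and 107 CPM. In such bulk tissue, fewer cells of a type and less RNA per cell cannot be told apart.

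No difference between fistula and sham veins was called for any member. All 10 passed the low-count filter, and 0 of 10 passed an adjusted p of 0.05 in the edgeR quasi-likelihood test, where 0% of the 18965 genes tested were called in either direction. Unadjusted p-values below 0.05 were found for 0 of 10 members, against 9.34% of all genes (5.26% higher and 4.08% lower in AVF-CKD). DESeq2, which called 64 genes higher and 38 lower, and limma voom, which called 0, also called 0 members, each with 0 members at an unadjusted p below 0.05. Adjusted p-values ran from 0.736 to 0.988. In 0 of 10 genes did the groups separate without overlap, against 0.638% of all genes. Of the 10 log2 fold changes 9 were positive, with a median of 0.12, against 49.1% positive and a median of -0.0025 over all genes. Some members varied together across libraries, so their signs are not separate observations. The 95% interval lay within 2-fold in either direction for 8 of the 10 genes, the exceptions being Pdk4 and Hsd11b1, and within 1.5-fold for 2, Nr3c1 and Sgk1.

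**Figure D1:**
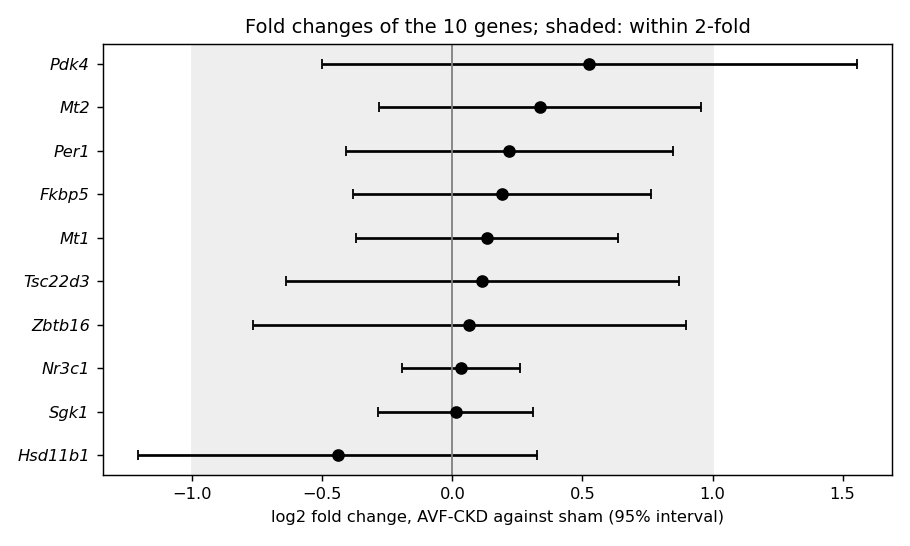
Log2 fold change of AVF-CKD against sham (horizontal axis) for each of the 10 genes, with 95% intervals from the edgeR fit over 12 libraries; the shaded band marks differences within 2-fold. Every interval includes 0, the narrowest belonging to Nr3c1 and Sgk1 and the widest to Pdk4.

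The genes differed in level and in how much they varied. Per kilobase, in the RPKM values of the deposited table averaged over the 12 libraries, Mt1 stood highest at 205 RPKM, followed by Mt2 (171), Tsc22d3 (52.5), Sgk1 (24.3), Nr3c1 (13.7), Per1 (9.89), Fkbp5 (9.41), Pdk4 (7.55), Hsd11b1 (2.89) and Zbtb16 (1.18). Neighbours in this order whose means lay closer than the larger of their SDs in both groups were Mt1 and Mt2 (in sham 195 ± 60.6 and 150 ± 66.5 RPKM, SD, n = 6), Per1 and Fkbp5 (9.14 ± 3.31 and 8.79 ± 3.75 RPKM), and Fkbp5 and Pdk4 (Pdk4 6.2 ± 4.86 RPKM). Pdk4 and Hsd11b1 (3.33 ± 2.02 RPKM) were as close in sham, but not in AVF-CKD, and Nr3c1 and Per1 (13.9 ± 2.11 and 10.6 ± 3.79 RPKM) in AVF-CKD, but not in sham. Within groups, the coefficient of variation of CPM was 13.7% for Nr3c1, near the median of 13.0% over 12701 genes with a mean of at least 5 CPM, and 18.7% for Sgk1. For the other 8 members it ran from 30.6% for Mt1 to 67.2% for Pdk4, above that of at least 90% of those genes.

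**Figure D2:**
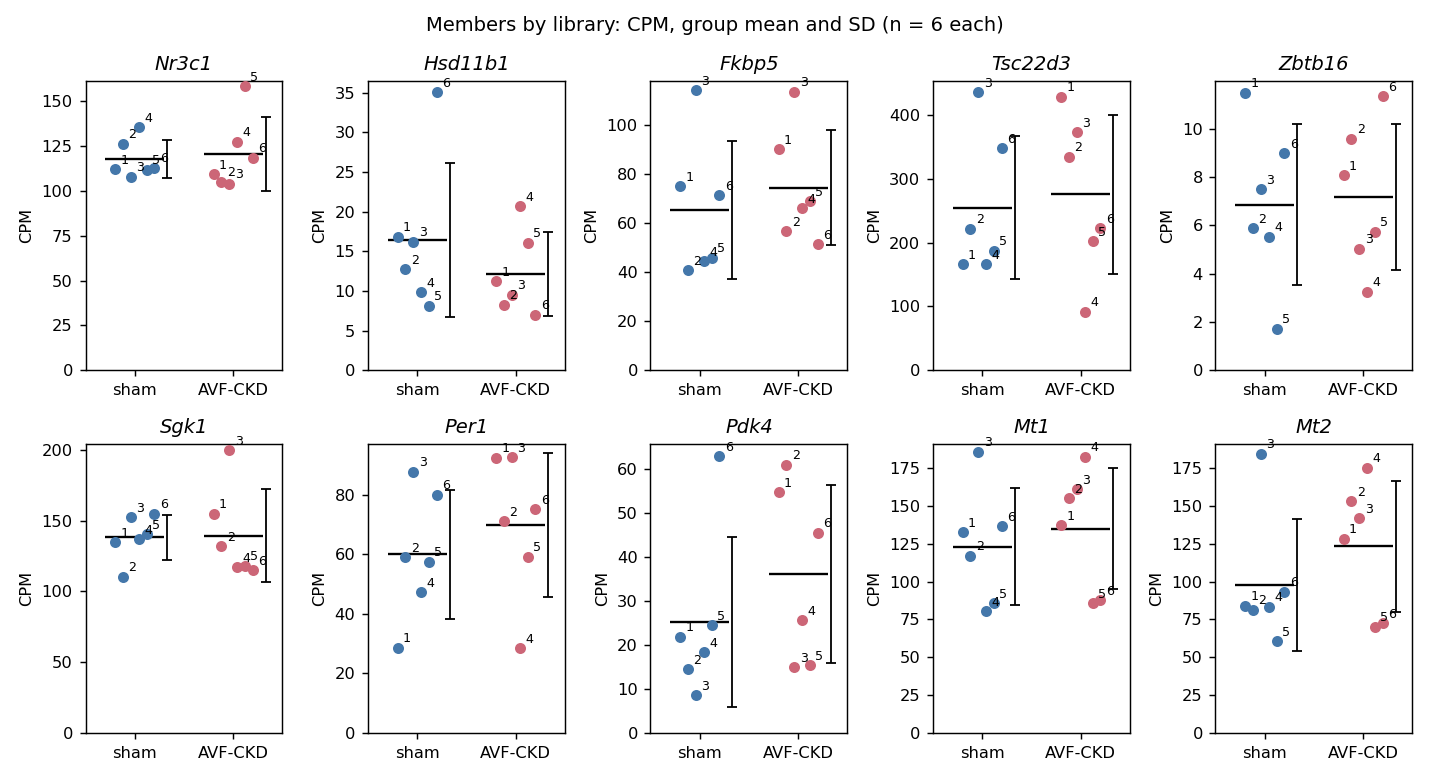
CPM of each gene (vertical axes, from 0) in the 6 sham and 6 AVF-CKD libraries, with the title number beside each point, the group mean as a line and the SD as a bar. The groups overlap in every panel, and the spread within a group is small for Nr3c1 and wide for Pdk4, Hsd11b1 and Tsc22d3.

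Nr3c1 encodes the glucocorticoid receptor (ENSMUSG00000024431, GRCm38 chromosome 18, 39410545 to 39491301). Its level was 108 CPM at the lowest, 112 at the median and 136 at the highest in sham, and 104, 114 and 158 CPM in fistula veins. The receptor transcript was thus the steadiest of the 10, with a coefficient of variation of 9.16% in sham and 17.1% in fistula veins. AVF-CKD 5 lay above the sham range, and AVF-CKD 2 and 3, at 105 and 104 CPM, just below it. The log2 fold change was 0.03 ± 0.11 (SE; edgeR adjusted p = 0.947), and its 95% interval allows 0.874 to 1.2 times the sham level.

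Hsd11b1 encodes the enzyme that regenerates active glucocorticoid from its inert 11-keto form inside cells (ENSMUSG00000016194, chromosome 1, 193221634 to 193264075). It ran from 8.13 CPM through a median of 14.5 to 35.1 CPM in sham, and from 7.01 through 10.4 to 20.7 CPM in fistula veins. The highest value was that of sham 6, and the other 5 sham libraries lay inside the AVF-CKD range. The log2 fold change was -0.44 ± 0.36 (SE; edgeR adjusted p = 0.736), and it was -0.07 without sham 6 and -0.66 without AVF-CKD 4. Across libraries Hsd11b1 moved with the mean of the 10 fat markers (Pearson r = 0.88, permutation p = 0.00029, adjusted p = 0.0058; Spearman rho = 0.78, permutation p = 0.00439, adjusted p = 0.0878; 20 relations of members with fat and muscle markers), so that r passed adjustment and rho did not. The r was 0.64 without sham 6 and AVF-CKD 4, the libraries farthest from the median in fat markers. All 10 fat markers had negative log2 fold changes (median -0.90), with 0 called and 5 at an unadjusted p below 0.05 in edgeR, against 9.34% of all genes. Of the endothelial markers 7 of 7 were negative as well (median -0.19), and of the smooth muscle markers 5 of 7 (median -0.31). In each of these lists 2 markers had an unadjusted p below 0.05 in edgeR. Skeletal muscle markers were negative in 9 of 10 (median -0.25), and T cell markers in 5 of 6 (median -0.21). Of the fibroblast markers 4 of 7 were positive, of the macrophage markers 4 of 6 and of the neutrophil markers 3 of 4. With fat and muscle marker levels as further terms, the log2 fold change of Hsd11b1 was 0.01 ± 0.19. Whether fat content underlies its group difference was not tested. H6pd, which supplies the NADPH that this enzyme uses in the endoplasmic reticulum, was the most abundant gene of its list. It ran from 95.3 through 107 to 122 CPM in sham veins and from 120 through 125 to 162 CPM in fistula veins, so that the groups met at their edges. Its log2 fold change was 0.30 ± 0.09 with an unadjusted p of 0.00493 (edgeR adjusted p = 0.401).

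Fkbp5 encodes a co-chaperone that lowers the hormone affinity of the receptor complex and is itself a receptor target, a short feedback loop (ENSMUSG00000024222, chromosome 17, 28399095 to 28517524). It ran from 40.8 through 58.5 to 114 CPM in sham veins and from 51.3 through 67.4 to 113 CPM in fistula veins. Sham 3 and AVF-CKD 3 stood at these top values, which nearly coincide. The log2 fold change was 0.19 ± 0.27 (edgeR adjusted p = 0.86), and it ranged from 0.031 without AVF-CKD 3 to 0.42 without sham 3.

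Tsc22d3 encodes GILZ, a leucine zipper protein through which glucocorticoids restrain NF-kB and AP-1 (ENSMUSG00000031431, chromosome X, 140539528 to 140600659). It ran from 166 through 205 to 436 CPM in sham veins and from 91.5 through 278 to 429 CPM in fistula veins. High levels, from 334 to 436 CPM, were found in sham 3 and 6 and AVF-CKD 1, 2 and 3, while AVF-CKD 4 was the lowest of the 12. AVF-CKD against sham gave 0.12 ± 0.35 on the log2 scale (edgeR adjusted p = 0.944), with a range from -0.058 without AVF-CKD 1 to 0.33 without sham 3. Within title numbers 1 to 3 it was 0.47, and within numbers 4 to 6 it was -0.44. The test of that difference gave -0.91 ± 0.58 (edgeR interaction, unadjusted p = 0.148, adjusted p = 0.64).

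Zbtb16 encodes PLZF, a zinc finger repressor that is a strong target of the receptor in many human cells (ENSMUSG00000066687, chromosome 9, 48654311 to 48835945). It was the least abundant member, from 1.71 through 6.69 to 11.5 CPM in sham veins and from 3.25 through 6.9 to 11.4 CPM in fistula veins. The ranges were nearly the same, and sham 5 was the lowest. Between the groups the log2 fold change was 0.06 ± 0.39 (edgeR adjusted p = 0.974), from -0.14 without sham 5 to 0.28 without sham 1.

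Sgk1 encodes a kinase that raises sodium channel and transporter activity under glucocorticoids and aldosterone (ENSMUSG00000019970, chromosome 10, 21882184 to 21999903). It ran from 110 through 139 to 155 CPM in sham veins and from 115 through 125 to 200 CPM in fistula veins. AVF-CKD 3 was the highest library and sham 2 the lowest, and the other 10 lay between 115 and 155 CPM. For Sgk1 the log2 fold change was 0.01 ± 0.14 (edgeR adjusted p = 0.988). Libraries numbered 1 to 3 gave 0.29 and those numbered 4 to 6 gave -0.30, a difference of -0.59 ± 0.21 (edgeR interaction, unadjusted p = 0.0164, adjusted p = 0.488). Sgk1 was the only member with an unadjusted interaction p below 0.05, where 9.22% of all genes were below it and 0% passed adjustment. The number sets are not a batch named in the labels. All 3 sham libraries numbered 4 to 6, but 1 of the 3 fistula libraries with those numbers, were of low Dbp, so number set and Dbp level were partly confounded.

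Per1 encodes a repressor of the circadian clock that glucocorticoids also induce directly (ENSMUSG00000020893, chromosome 11, 69095217 to 69109960). It ran from 28.5 through 58.2 to 87.6 CPM in sham veins and from 28.4 through 73.1 to 92.6 CPM in fistula veins, with sham 1 and AVF-CKD 4 at the bottom. Its log2 fold change was 0.22 ± 0.29 (edgeR adjusted p = 0.851), from 0.075 without sham 1 to 0.38 without AVF-CKD 4. Per1 did not divide the libraries as the clock gene Dbp did. In the 4 libraries of low Dbp it was at 47.1 to 80.0 CPM, inside the 28.4 to 92.6 CPM of the other 8. Its paralog Per2 did divide them, at 6.3 to 10.9 CPM and 17.7 to 48.4 CPM in the same order.

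Relations within the 8 libraries of high Dbp were chosen after their values were seen, 5 in all. Adjustment covered only these 5 and does not account for that choice. The values are also not separate from those over all 12 libraries given below, which include these 8. There Per1 moved with Tsc22d3 (r = 0.93, exact permutation p = 0.000794, adjusted p = 0.00384; rho = 0.88, exact p = 0.00724, adjusted p = 0.0181) and with Per2 (r = 0.93, exact permutation p = 0.00154, adjusted p = 0.00384; rho = 0.93, exact p = 0.00223, adjusted p = 0.0112). Tsc22d3 and Per2 had an r of 0.82 (exact permutation p = 0.0145, adjusted p = 0.0241) and a rho of 0.81 (exact p = 0.0218, adjusted p = 0.0363). Without AVF-CKD 4 and sham 1 these r values were 0.95, 0.83 and 0.76. Dbp itself had an r of -0.09 with Per1 (exact permutation p = 0.825, adjusted p = 0.825; rho = -0.05, exact p = 0.935, adjusted p = 0.977) and 0.13 with Tsc22d3 (exact p = 0.765, adjusted p = 0.825; rho = 0.02, exact p = 0.977, adjusted p = 0.977). Without AVF-CKD 4 and sham 1 these were -0.50 and -0.44. Since the 8 libraries were those of high Dbp, Dbp spanned only 77.7 to 107 CPM in them. The r values with Dbp therefore cannot show whether Per1 or Tsc22d3 follows Dbp over a wider range.

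**Figure D3:**
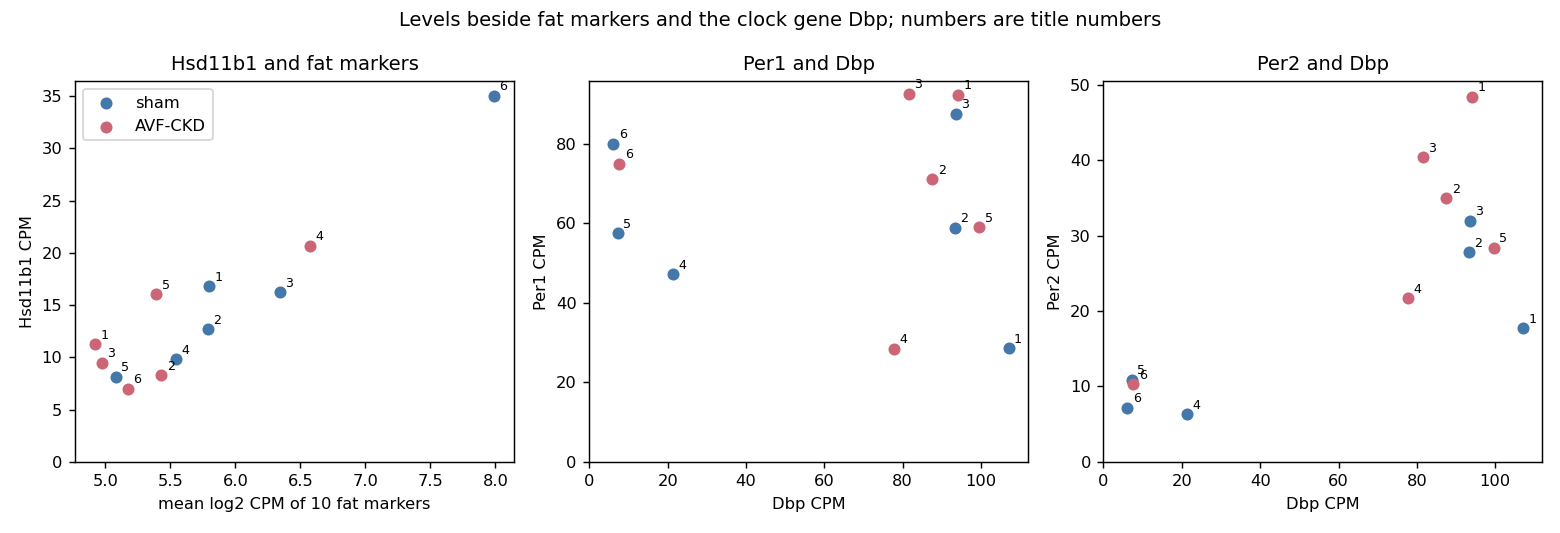
Left, Hsd11b1 CPM against the mean log2 CPM of 10 fat markers; middle and right, Per1 and Per2 CPM against Dbp CPM; points are the 12 libraries coloured by group, with title numbers. Sham 6 is highest for both fat markers and Hsd11b1, and the 4 libraries of low Dbp are low in Per2 but not in Per1.

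Pdk4 encodes a kinase that shuts off pyruvate dehydrogenase and so spares glucose, induced by fasting and glucocorticoids in muscle (ENSMUSG00000019577, chromosome 6, 5483351 to 5496309). It ran from 8.65 through 20.1 to 63 CPM in sham veins and from 15 through 35.6 to 61.1 CPM in fistula veins. Sham 6 and AVF-CKD 1, 2 and 6 were high, at 45.6 to 63 CPM, and sham 3 was the lowest. The log2 fold change of 0.53 ± 0.48 (edgeR adjusted p = 0.767) was the largest of the 10, and it ranged from 0.31 without AVF-CKD 2 to 1.04 without sham 6. Libraries numbered 1 to 3 gave 1.53 and those numbered 4 to 6 gave -0.29, where sham 6 lies; the edgeR interaction was -1.83 ± 0.87 (adjusted p = 0.547). Pdk4 had an r of 0.57 with skeletal muscle markers (permutation p = 0.0532, adjusted p = 0.355; rho = 0.52, permutation p = 0.0892, adjusted p = 0.357), and of 0.24 without sham 3 and AVF-CKD 5. With fat and muscle marker levels as terms the log2 fold change was 1.2 ± 0.31 (edgeR adjusted p = 0.781).

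Mt1 (ENSMUSG00000031765, chromosome 8, 94179089 to 94180325) and Mt2 (ENSMUSG00000031762, chromosome 8, 94172618 to 94173567) lie side by side on the same strand and encode the widely expressed metallothioneins. Mt1 ran from 80.5 through 125 to 186 CPM in sham veins and from 85.6 through 146 to 183 CPM in fistula veins, with a difference of 0.13 ± 0.23 on the log2 scale (edgeR adjusted p = 0.892). Mt2 ran from 60.6 through 83.6 to 185 CPM in sham veins and from 70.1 through 135 to 175 CPM in fistula veins, with a difference of 0.34 ± 0.29 on that scale (edgeR adjusted p = 0.753). Sham 3 and AVF-CKD 4 were highest for both genes. For Mt2, sham 3 and AVF-CKD 1, 2, 3 and 4, at 128 to 185 CPM, stood clear of the other 7 libraries, at 60.6 to 93.3 CPM, while for Mt1 AVF-CKD 1 and sham 6 both stood at 137 CPM. Leaving out AVF-CKD 4 put Mt1 at 0.028 and Mt2 at 0.21 on the log2 scale, and leaving out sham 3 put them at 0.28 and 0.61 (edgeR adjusted p = 0.528 for this last value).

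The count of Mt2 per count of Mt1 ran from 0.634 to 1.03 in sham veins and from 0.819 to 0.987 in AVF-CKD. Sham 1, 2, 5 and 6, at 0.634 to 0.708, lay below every AVF-CKD library, and sham 3 and 4, at 0.993 and 1.03, above every one. On the log2 scale the group means of this ratio were 0.21 apart, a difference that did not pass an exact permutation test (both sides, p = 0.143; the ratio was chosen after its values were seen). The longest identical run between annotated Mt1 and Mt2 transcripts was 20 bases. Exons of Mt2 are overlapped over 73.5% of their length by the antisense model Gm45774 in GENCODE M21, a model not among the genes of the count table. No use of strand in counting is stated, and without it reads from the opposite strand cannot be told apart from Mt2 itself. The exons of the other 9 members overlapped no other model.

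Members varied together across libraries in 2 of 45 pairs after adjustment over the pairs. Tsc22d3 and Per1 had an r of 0.90 (permutation p = 1e-05, the smallest the 100000 draws can give, adjusted p = 0.00045) and a rho of 0.95 (permutation p = 1e-05, adjusted p = 0.00045). The r was 0.84 without AVF-CKD 4 and sham 3, and 0.85 within sham and 0.96 within AVF-CKD. Mt1 and Mt2 had an r of 0.90 (permutation p = 0.00015, adjusted p = 0.00337) and a rho of 0.92 (permutation p = 7e-05, adjusted p = 0.00157), with an r of 0.92 without sham 4 and 5. The next pairs did not pass: Fkbp5 with Sgk1 (r = 0.70, permutation p = 0.0103, adjusted p = 0.154; rho = 0.65, permutation p = 0.0253, adjusted p = 0.208) and Fkbp5 with Mt1 (r = 0.67, permutation p = 0.0202, adjusted p = 0.227; rho = 0.69, permutation p = 0.0177, adjusted p = 0.199). Without sham 3 and AVF-CKD 3 these r values were 0.46 and 0.50. Fkbp5 and Tsc22d3, both direct receptor targets, had an r of 0.54 (permutation p = 0.0726, adjusted p = 0.327; rho = 0.61, permutation p = 0.0402, adjusted p = 0.208), which was 0.28 without the same libraries. The receptor gene Nr3c1 had negative r values with Sgk1 (-0.61), Mt1 (-0.56) and Tsc22d3 (-0.56), none past adjustment (permutation p = 0.0369, 0.0511 and 0.0582, adjusted p = 0.237, 0.287 and 0.291; rho -0.59, -0.57 and -0.69, adjusted p = 0.208, 0.208 and 0.199). Leaving out the 2 libraries farthest from the median of Sgk1, Mt1 or Tsc22d3 gave -0.57, -0.62 and -0.55 in that order. AVF-CKD 5, the highest library for Nr3c1, stayed in each time.

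**Figure D4:**
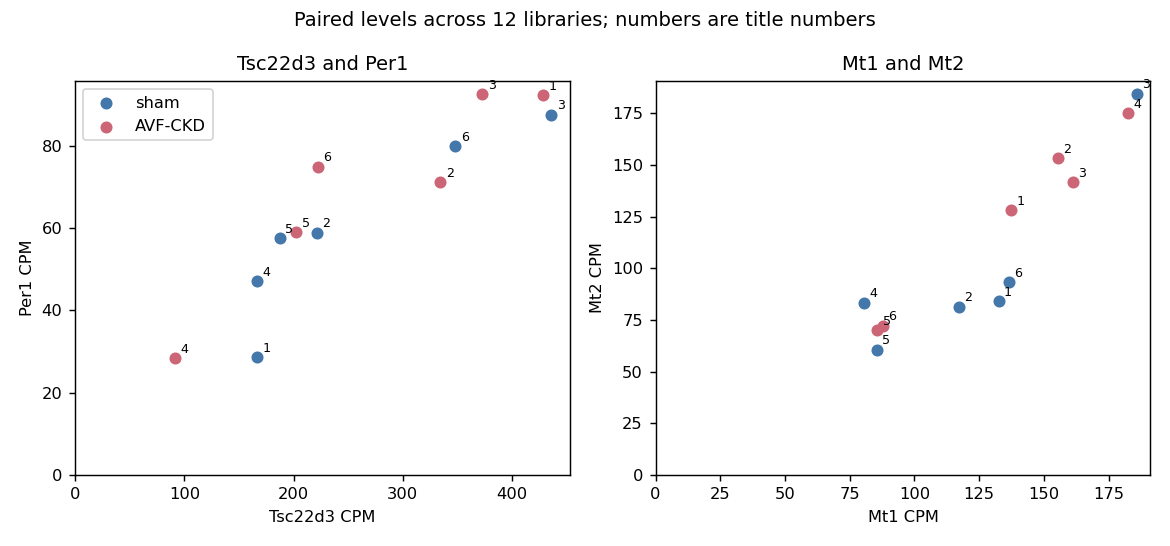
CPM of Tsc22d3 and Per1 (left) and of Mt1 and Mt2 (right) in the 12 libraries, coloured by group and marked with title numbers. In each panel the 2 genes rise together within both groups. AVF-CKD 4 is lowest for Tsc22d3 yet near the top for Mt1 and Mt2.

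Sham 3, AVF-CKD 1 and AVF-CKD 3 were the 3 highest libraries for both Tsc22d3 and Fkbp5, and AVF-CKD 1 and 3 and sham 3 also led for Per1. The library AVF-CKD 4 broke the pattern: it was the lowest of the 12 for Tsc22d3 and Per1 and the second highest for Mt1 and Mt2. Sham 3 was highest for Fkbp5, Tsc22d3, Mt1 and Mt2 and lowest for Pdk4. It also held the least skeletal muscle signal (mean log2 CPM of the muscle markers 5.41, against 6.25 to 9.88 in the others). Over the 12 libraries this mean had r values of -0.60 with Fkbp5, -0.03 with Tsc22d3, -0.44 with Mt1 and -0.38 with Mt2. None passed adjustment (permutation p = 0.0371, 0.93, 0.151 and 0.216, adjusted p = 0.355, 0.998, 0.605 and 0.718). Without sham 3 and AVF-CKD 5 they were -0.47, 0.28, -0.63 and -0.41. The part of muscle in the values of sham 3 itself was not tested.

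**Figure D5:**
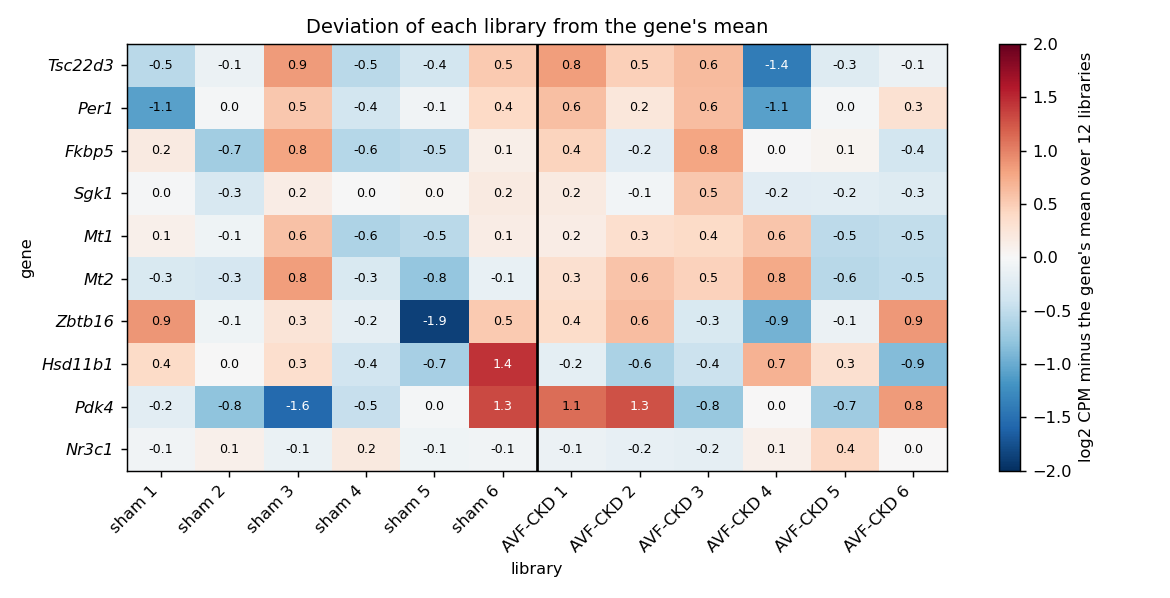
Deviation of log2 CPM from the mean of each gene over 12 libraries, by gene (rows) and library (columns), red above and blue below the mean; the line separates sham from AVF-CKD. Sham 3 and AVF-CKD 1 and 3 are above the mean for Tsc22d3, Per1, Fkbp5, Sgk1, Mt1 and Mt2, while AVF-CKD 4 is below for the genes Tsc22d3 and Per1 and above for Mt1 and Mt2.

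Among 11544 other named genes with a mean of at least 5 CPM, those with the most similar pattern over the 12 libraries were taken by Pearson r, as a description of these libraries. Cebpg, which encodes a bZIP transcription factor, led for both Tsc22d3 (r = 0.90, rho = 0.88) and Per1 (r = 0.88, rho = 0.84). Their next matches were Luc7l (0.87, 0.85) and Smek1 (0.85, 0.78). For Fkbp5 they were Map3k6 (r = 0.94, rho = 0.92) and Chka (0.92, 0.92), and for Sgk1 Tprn (0.92, 0.87) and Rhob (0.86, 0.86). Mt1 was matched by Isyna1 (r = 0.94, rho = 0.83) and Tmem203 (0.91, 0.83), and Mt2 by Atg7 (0.87, 0.67) and Ppcdc (0.85, 0.86). Hsd11b1 was matched by Slc1a5 (r = 0.93, rho = 0.90) and Abhd5, a lipolysis cofactor of fat cells (0.92, 0.95). For Pdk4 a close match was Ucp3, a mitochondrial carrier of muscle (r = 0.84, rho = 0.79). Nr3c1 was matched by Slfn5 (0.93, 0.90) and Xrn1 (0.93, 0.94), and Zbtb16 by Mapk1ip1 (0.83, 0.59) and Ring1 (0.82, 0.94).

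Other genes of the pathway were also without a call in the edgeR test. Of 21 genes of the receptor complex and its cofactors, all tested, 10 were positive and 11 negative (median log2 fold change -0.02) and 4 had an unadjusted p below 0.05, a level reached by 9.34% of all genes tested. Hsp90ab1, the abundant chaperone that holds the receptor ready, stood at 885 CPM ± 64.5 (SD, n = 6) in sham veins and 874 CPM ± 54.6 in AVF-CKD. Ppid, the cyclophilin co-chaperone of the same complex, had the smallest p, at 60.0 CPM ± 3.06 and 52.3 CPM ± 3.10 (log2 fold change -0.20 ± 0.06, edgeR adjusted p = 0.399). The others below an unadjusted 0.05 were Hsp90aa1 (log2 fold change -0.27), Fkbp4 (-0.18) and Ep300 (0.24), named after their values were seen. Of 8 corticosteroid enzyme and transport genes 7 were tested, 5 positive and 2 negative (median 0.23), with H6pd and the cholesterol carrier gene Star at an unadjusted p below 0.05 (9.34% of all genes). Hsd11b2, which inactivates glucocorticoid, was at 1.09 CPM ± 0.214 in sham veins and 0.993 CPM ± 0.29 in AVF-CKD, and was also named after its values were seen.

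Of 34 further textbook glucocorticoid-induced genes 32 were tested, 18 positive and 14 negative (median 0.07), and 3 had an unadjusted p below 0.05, a share near the 9.34% of all genes. The most abundant was Anxa1, the anti-inflammatory annexin, at 624 CPM ± 90.7 in sham veins and 606 CPM ± 86.9 in AVF-CKD. Lcn2, which encodes lipocalin 2 and also marks neutrophils and kidney injury, had the smallest p, at 13.5 CPM ± 6.18 and 32.4 CPM ± 20.6 (log2 fold change 1.26 ± 0.38, edgeR adjusted p = 0.401). Its highest library was AVF-CKD 4, at 73.8 CPM, and the groups overlapped. Il1r2 (0.65) and Cdkn1c (-0.39), named after their values were seen, were the others.

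Of 25 zinc and metal handling genes 22 were tested, 13 positive and 9 negative (median 0.02), with 2 at an unadjusted p below 0.05, again near the 9.34% of all genes. The zinc importer gene Slc39a1 was the most abundant, at 221 CPM ± 13.4 in sham veins and 209 CPM ± 11.1 in AVF-CKD. Slc39a8, another metal importer gene, had the smallest p, at 6.83 CPM ± 0.495 and 5.505 CPM ± 0.457 (log2 fold change -0.31 ± 0.09, edgeR adjusted p = 0.399), and Slc39a4 (0.57), named after its values were seen, was the other. Slc30a1 and Mtf1, the zinc exporter and metal sensor genes of the MTF1 pathway, were named after their values were seen. Slc30a1 was at 25.9 CPM ± 3.33 in sham veins and 27.5 CPM ± 2.27 in AVF-CKD, and Mtf1 at 26.03 CPM ± 1.66 and 27.5 CPM ± 2.02. Neither spread as widely as the metallothionein genes. Of 29 family relatives of the members and clock genes 28 were tested, 17 positive and 11 negative (median 0.02), 2 of them at an unadjusted p below 0.05, against 9.34% of all genes. Fkbp1a was the most abundant (274 CPM ± 22.5 in sham, 258 CPM ± 25.4 in AVF-CKD). Zbtb7a, a zinc finger repressor gene, had the smallest p (46.3 CPM ± 3.92 and 58.9 CPM ± 7.22, log2 fold change 0.35 ± 0.09, edgeR adjusted p = 0.39), and Tsc22d4 (0.17), named after its values were seen, was the other.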

How the data were processed

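Venous RNA of 6 sham and 6 AVF-CKD samples was made into TruSeq RNA libraries, as the labels' protocols state. The deposited table gives a count and an RPKM value per gene and library. The submitters' processing notes name GRCm38, TopHat2 2.1.0, featureCounts and edgeR without their roles, and no source used here gives the annotation release or strand setting. Deposited counts are whole numbers and entered the fits unchanged. RPKM, named as such per the file headers, was used only to order levels between genes.

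Genes passing filterByExpr entered edgeR 4.0.16 (R 4.3.3) with TMM factors and its quasi-likelihood test, group as the single term, with Benjamini-Hochberg adjustment over all 18965 genes and calls below 0.05. CPM were divided by TMM-adjusted totals; their log2 has 2 prior counts. Fold changes carry the SE from the F statistic. Groups came from the titles. The members and lists were chosen with earlier results of these data known. All members were named; of each pathway list the most abundant gene and that with the smallest p, and for each member the 2 genes of highest r, of which 1 is not reported here. Correlations used 100000 permutations, or exact ones for 8 libraries. Alternatives were 3 other scalings, 2 filters, the title number as a block, number sets, DESeq2 1.42.0, limma 3.58.1 voom, marker levels as terms and leaving out libraries. The fits were tested on simulated data. Gene overlap came from GENCODE M21, in which 42462 of 43346 identifiers were found.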

Additional observations from a re-analysis of the deposited data

Results flagged for a closer look

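In groups of 6, a library was marked where its gap to the nearest other over the group's whole range exceeded Dixon's 95% critical value. Among 20 such tests, 10 genes in 2 groups, 3 values were marked, where chance marks about 1 in 20 if values are normally distributed. That was not checked for CPM, and members that vary together do not give separate tests. All 3 marked values were high ones. Mt2 in sham 3 stood at 185 CPM, against 60.6 to 93.3 CPM in the other sham libraries, with a gap of 0.736 of the range. Sham 3 was also the highest library for Mt1, Fkbp5 and Tsc22d3. Hsd11b1 in sham 6 stood at 35.1 CPM, with a gap of 0.677, and Pdk4 in sham 6 at 63 CPM, with a gap of 0.707. Sham 6 had the highest fat marker mean of the 12 libraries, 7.99 on the log2 CPM scale against 4.92 to 6.57 in the others. Over the 12 libraries this mean had an r of 0.88 with Hsd11b1, as given above. With Pdk4 its r was 0.13 (permutation p = 0.705, adjusted p = 0.998, rho = -0.01), and -0.59 without sham 6 and AVF-CKD 4. The part of fat in the 2 values of sham 6 itself was not tested.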

How the results depend on the processing

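The number of genes called stayed at 0 in each direction under the alternatives run, except that DESeq2 called 64 higher and 38 lower and that leaving out a library gave 0 to 1 higher, the 1 without AVF-CKD 3, and 0 lower. No member was called in any of 250 refits (25 settings for 10 genes; lowest adjusted p 0.41), and 229 kept the sign. An unadjusted p below 0.05 was found for 2 of 10 members in the 1 to 3 set alone, against 10.4% of all genes there. For the 4 to 6 set alone it was 1 member, against 10.6% of all genes. It was also 1 with marker levels as terms (6.26% of all genes), without sham 3 (8.55%) and without sham 6 (7.23%). The other settings had 0 such members. The title number as a block called 0 genes and 0 members and put Sgk1 at -0.0090; same-numbered libraries had correlations of deviations of -0.109 to 0.277, 3 of the 6 above 0.1 (0.242, 0.277 and 0.142), and 1 of 6 sham and 2 of 6 AVF-CKD libraries correlated best with their own number. The labels do not say whether the numbers pair samples, so the block served as an alternative only. These correlations cannot show that pairing was absent. With the block the SE fell for every member but Hsd11b1, most for Fkbp5 (0.27 to 0.14), and rose from 0.36 to 0.43 for Hsd11b1. The share of all genes with an unadjusted p below 0.05 in edgeR was 10.9% with the block and 9.34% without it. Signs turned as follows, with the cause not tested. Within title numbers 4 to 6 the log2 fold changes were -0.44 for Tsc22d3, -0.30 for Sgk1, -0.29 for Pdk4 and -0.18 for Per1, and within numbers 1 to 3 they were -0.14 for Zbtb16 and -0.12 for Nr3c1. Without the 4 libraries of low Dbp, Zbtb16 was at -0.39 and Mt1 at -0.0075. With number set as a term Sgk1 was at -0.0056, with marker levels as terms Sgk1 was at -0.0066 and Hsd11b1 at 0.0068, and limma voom put Nr3c1 at -0.022. Leaving out each library gave -0.058 to 0.33 for Tsc22d3, -0.14 to 0.28 for Zbtb16, -0.12 to 0.062 for Sgk1 and -0.061 to 0.077 for Nr3c1. The median of the corticosteroid enzyme and transport list was 0.34 with the stricter filter, 0.046 within numbers 4 to 6, and 0.080 to 0.32 without a library, falling most without AVF-CKD 2 (0.080) and sham 1 (0.09). The 2 correlated pairs passed without the farthest libraries and after subtracting group means. Each member held at least 79 counts in each library.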
